A study of Mus musculus with 7 samples.

Results

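The cytosolic heat shock proteins and their partners were followed here as the 10 genes Hspa1a, Hspa1b, Hspa8, Hsp90aa1, Hsph1, Dnajb1, Hspb1, Cryab, Hsf1 and Bag3, chosen by name. Every probe set annotated to only 1 of these symbols was taken, which gave 23 probe sets for 9 genes, out of 34945 probe sets and 18193 genes with 1 symbol. Hsf1, the heat shock transcription factor itself, had no such probe set in the annotation used and was not analysed here. RNA came from quadriceps femoris of 3 mice overexpressing mutant Twinkle, the helicase of mitochondrial DNA, and of 4 wild-type mice, with 1 single-colour array per mouse. Ages were 24, 24 and 21 months for mutant replicates 1 to 3, and 26, 24, 21 and 23 months for wild-type replicates 1 to 4. The labels call the arrays biological replicates, and the promoter of the transgene, the strain and the sex of the mice are not given in the sources used here.

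Heat shock proteins hold other proteins in a soluble state, fold them or pass them on for degradation. HSF1 rests bound to chaperones and, when unfolded proteins occupy these, binds heat shock elements in the promoters of Hspa1a, Hspa1b, Dnajb1, Hsph1, Hspb1 and other genes. In muscle, the small heat shock proteins Hspb1 and Cryab bind sarcomere and cytoskeleton proteins, and Bag3 links HSP70 and small heat shock proteins to the autophagy of damaged Z-disc proteins. The comparison asks whether these genes differ between muscle with mutant Twinkle and wild-type muscle.

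Values are the log2 values as deposited, in which each probe set has a median of 0 over the arrays, so they give differences between arrays and no absolute level. A rough level class was recovered from the spacing of the numbers. On the log2 scale, 12 of the 23 probe sets lay between 8 and 16, 7 between 4 and 8 and 4 between 2 and 4. For each gene, the probe sets in its highest class were averaged. The free-text descriptions name cerebellum, where the other labels name quadriceps. All 10 muscle fibre markers lay in the class from 8 to 16 and none of 9 cerebellum markers did (5 lay between 4 and 8 and 4 between 2 and 4). Twnk, the gene of Twinkle, gave -0.15, 0.44 and 0.00 on the mutant arrays, and the wild type gave 0.34, -0.13, -0.14 and 0.15. The groups overlapped, so Twnk did not separate mutant from wild type, and the sources do not state whether its probes lie in the transgene. Fgf21, a hormone released by muscle with mitochondrial disease, gave 2.03, 0.93 and 0.83 on the mutant arrays and at most 0.00 in wild type. Several arrays stood apart. Wild-type replicate 3 had the highest mean of the 7 fibroblast (1.02), 6 adipocyte (0.93), 9 leukocyte (0.70) and 4 nerve (0.57) markers measured and the lowest muscle fibre mean (-0.58, against -0.06 to 0.12 in the other 6 arrays). For the Gapdh control, the 5 prime probe set less the 3 prime one gave -0.55 in this array and -0.040 to 0.094 in the others. The same measure of beta-actin separated the groups, at -0.14 to -0.0081 in mutant and 0.020 to 0.12 in wild-type muscle, and its part in the results was not tested. The mean of 11 slow fibre markers was -2.92 in wild-type replicate 1, -2.04 in replicate 2 and at least -0.19 in the other 5 arrays. The ribosomal RNA control was 3.19 in mutant replicate 1, against -0.77 to 0.56 elsewhere.

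Hspa1a and Hspa1b, the pair of stress-inducible HSP70 genes, are shown with the 250 bases before their start because they were the members with the largest differences and because their promoters are nearly the same. Hspb1 is shown beside them as an HSF1 target with another pattern over the arrays. Sequences are from RefSeq, build GRCm38.p6, 5′ to 3′ on the strand of the gene, and capitals mark matches to a heat shock element pair, GAANNTTC or TTCNNGAA, each of which reads the same on both strands.
Hspa1a (chr17:34972157-34972406, minus strand): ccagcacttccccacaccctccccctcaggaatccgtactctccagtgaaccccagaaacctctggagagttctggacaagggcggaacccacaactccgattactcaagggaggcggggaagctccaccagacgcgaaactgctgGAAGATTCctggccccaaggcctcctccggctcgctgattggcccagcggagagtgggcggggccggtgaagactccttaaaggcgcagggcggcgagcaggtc
Hspa1b (chr17:34959239-34959488, minus strand): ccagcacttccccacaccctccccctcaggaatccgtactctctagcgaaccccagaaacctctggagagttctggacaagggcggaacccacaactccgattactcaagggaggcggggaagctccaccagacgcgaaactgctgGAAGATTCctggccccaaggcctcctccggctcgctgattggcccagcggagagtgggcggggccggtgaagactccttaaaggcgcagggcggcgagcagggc
Hspb1 (chr5:135887669-135887918, plus strand): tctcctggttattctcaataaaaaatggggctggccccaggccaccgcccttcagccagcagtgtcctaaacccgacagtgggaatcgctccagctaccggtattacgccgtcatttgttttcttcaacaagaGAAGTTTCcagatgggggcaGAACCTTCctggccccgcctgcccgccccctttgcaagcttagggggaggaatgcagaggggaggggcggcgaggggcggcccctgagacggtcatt
The promoters of Hspa1a and Hspa1b were identical at 247 of 250 bases, and both hold the pair GAAGATTC starting 104 bases before the gene's start. Hspb1 holds GAAGTTTC and GAACCTTC starting 117 and 97 bases before its start. Of the 6 members with a promoter entry, 4 had at least 1 such pair in this window, Hsph1 being the fourth, and Dnajb1 and Bag3 had none. The pair is common, with 12.8% of all 32851 promoter windows of this length holding it. That share counts windows, while the members were counted by gene, and the 6 members have 8 windows. The longer heat shock element, which adds a further unit of the same kind to the pair and was searched on both strands, occurred in 0.466% of windows and was in none of the members' windows. A match is a run of letters and not a measured binding site.

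No heat shock gene or probe set passed the threshold of an adjusted p under 0.05 in limma, a linear model with a shared variance estimate. The call count was 0 of 9 genes, where 0.0% of the 18193 genes were called, and 0 of 23 probe sets, where 0.0% of the 34945 probe sets were called. At an unadjusted p under 0.05 there was 1 of 9 genes, Hspa1a, which measured lower, beside 1.43% of all genes (0.742% higher and 0.693% lower in mutant). Among probe sets there were 2 of 23, the lower one of Hspa1a and a higher one of Hsp90aa1, beside 1.79% of all probe sets (1.2% higher and 0.592% lower). The inducible HSP70 genes Hspa1a and Hspa1b measured lower in mutant muscle on the log2 scale, by 0.57 and 0.65 in the gene fit, and the other 7 genes differed by 0.19 or less in either direction. Of the 9 genes, 6 had a positive and 3 a negative difference, with a median of 0.03 against -0.01 over all genes, whose differences were positive in 46.5%. Of the 23 probe sets, 12 differences were positive, beside 48.3% of all probe sets. The 95% interval of the difference crossed 0 in 8 of the 9 genes.

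**Figure D1:**
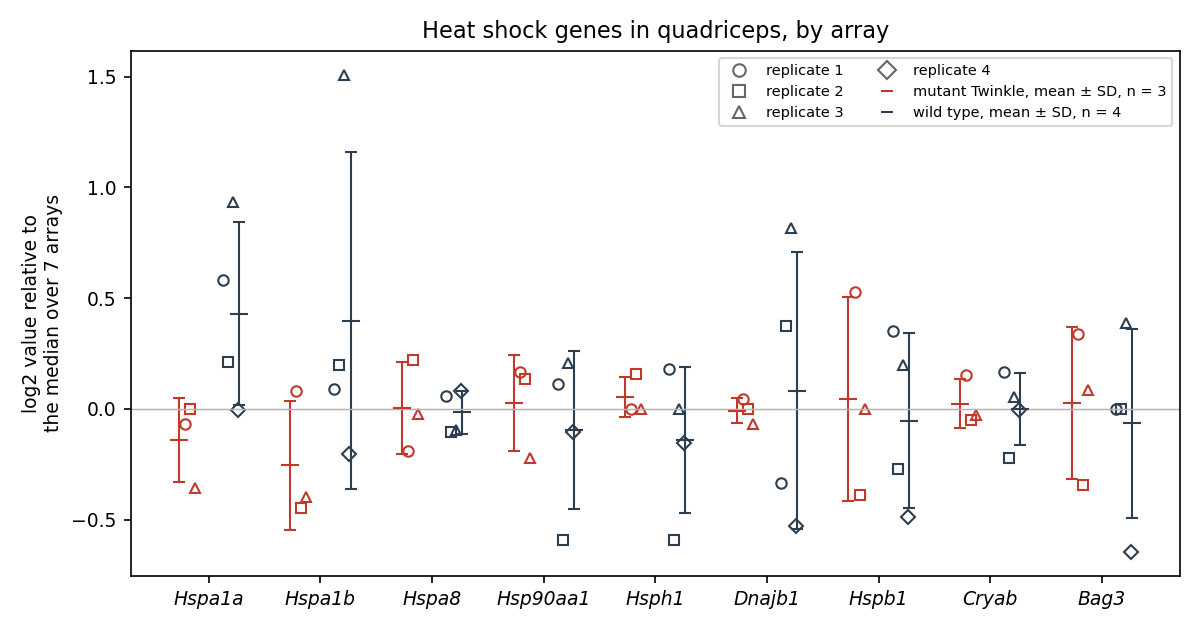
Gene values of the 9 measured heat shock genes, as log2 values relative to the median over the 7 arrays, with 1 symbol per array (mutant Twinkle in red, wild type in dark blue) and the mean ± SD of each group beside it. Wild-type replicate 3 lies at 1.51 for Hspa1b and 0.93 for Hspa1a, above every other array, and the groups overlap in all 9 genes.

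Hspa1a, one of the stress-inducible cytosolic HSP70 chaperones, has 1 probe set. It gave -0.07, 0.00 and -0.36 in mutant replicates 1 to 3, and wild-type replicates 1 to 4 gave 0.58, 0.21, 0.93 and -0.01. The 3 mutant arrays and wild-type replicate 4 lay at or below 0 and the other 3 wild-type arrays above it, so the groups overlapped only through wild-type replicate 4, which lay just under the highest mutant array. The means were -0.14 ± 0.19 (SD, n = 3) and 0.43 ± 0.41 (SD, n = 4), a log2 difference of -0.57 ± 0.23 (SE), or 1.49-fold lower in mutant muscle, with a 95% interval from -1.10 to -0.04. The limma adjusted p over all genes was 1.00, and the two-sided exact permutation p over the 35 splits of the arrays was 0.0857, where 0.0286 is the smallest these arrays can give. Leaving out wild-type replicate 3 gave -0.40, and leaving out replicate 4 gave -0.72.

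Hspa1b, its near-identical neighbour on chromosome 17, has 3 probe sets. Their average gave 0.08, -0.45 and -0.40 on the mutant arrays, and the wild type gave 0.09, 0.20, 1.51 and -0.20. Wild-type replicate 3 stood far above the other 6 arrays, and the remaining wild-type arrays lay within or just above the mutant range. The means were -0.26 ± 0.29 (SD, n = 3) and 0.40 ± 0.76 (SD, n = 4), a log2 difference of -0.65 ± 0.39 (SE) with a 95% interval from -1.57 to 0.27 (limma adjusted p = 1.00, exact permutation p = 0.171). Without wild-type replicate 3 the difference was -0.28, and leaving out replicate 4 gave -0.85. In wild-type replicate 3 the fibroblast, adipocyte, leukocyte and nerve marker means were also highest and the muscle fibre mean lowest, as given above. The slow fibre mean was highest there too (0.74). The means of endothelium and mural, satellite and erythroid markers were not (-0.11, -0.06 and 0.12). The Gapdh 5 prime less 3 prime value of this array was the lowest, at -0.55. The part of all these in the Hspa1a and Hspa1b values was not tested. In whole muscle, fewer cells of a type and less RNA per cell cannot be told apart.

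The 3 probe sets of Hspa1b had the same array on top. They measured 1.64, 1.47 and 1.41 in wild-type replicate 3, against at most 0.39, 0.21 and 0.17 in the other 6 arrays. Their differences between groups were -0.57, -0.72 and -0.66. Because Hspa1a and Hspa1b transcripts are almost the same in sequence, the probe sets of the pair may each detect both transcripts, so their values are not independent of each other.

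Hspa8, the constitutive HSP70 that is abundant without stress, gave -0.19, 0.22 and -0.02 on the mutant arrays, and the wild type gave 0.06, -0.10, -0.09 and 0.08. These are averages of 3 probe sets of the highest class, and the mutant arrays spanned the wild-type range. The difference was 0.02 ± 0.12 (SE), with a 95% interval from -0.26 to 0.29, and its sign changed when any of 3 arrays was left out. The averaged probe sets agreed only in part. One was nearly flat, from -0.08 to 0.08, and 3 wild-type arrays had the same value. Another ran from -0.37 in mutant replicate 1 to 0.55 in mutant replicate 2, and the Pearson r between these over the 7 arrays was -0.68, as a description. The third averaged one moved with the one that ran from -0.37 to 0.55 (r = 0.74). The probe set in the class between 2 and 4 ran against the third averaged one (r = -0.77).

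Hsp90aa1, the stress-inducible cytosolic HSP90, had 5 probe sets that disagreed. The 2 in the highest class averaged 0.16, 0.14 and -0.22 on the mutant arrays, and the wild type gave 0.11, -0.59, 0.21 and -0.10. Wild-type replicate 2 was lowest and the groups overlapped. The difference was 0.12 ± 0.21 (SE), with a 95% interval from -0.36 to 0.60, and without wild-type replicate 2 it was -0.05. The 1 probe set in the class between 4 and 8 gave 0.84, 0.14 and 0.77 on the mutant arrays, and the wild type gave -0.25, -0.38, -0.50 and 0.00. The lowest mutant array, replicate 2, was still above the highest wild-type array, replicate 4. It was the only member probe set with no overlap between the groups, 1 of 23, beside 1.1% of all probe sets with mutant above and 0.941% with mutant below. Its log2 difference was 0.87 ± 0.20 (SE), or 1.82-fold, with a 95% interval from 0.40 to 1.34, and it ranked as number 25 by p among 34945 probe sets. The adjusted p in the probe set fit of limma was 1.00. Groups that do not overlap give the smallest exact permutation p, 0.0286, by construction, so that p is no further support. The probe set was singled out after its values were seen, and the other 4 probe sets of the gene differed by -0.20 to 0.18.

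**Figure D2:**
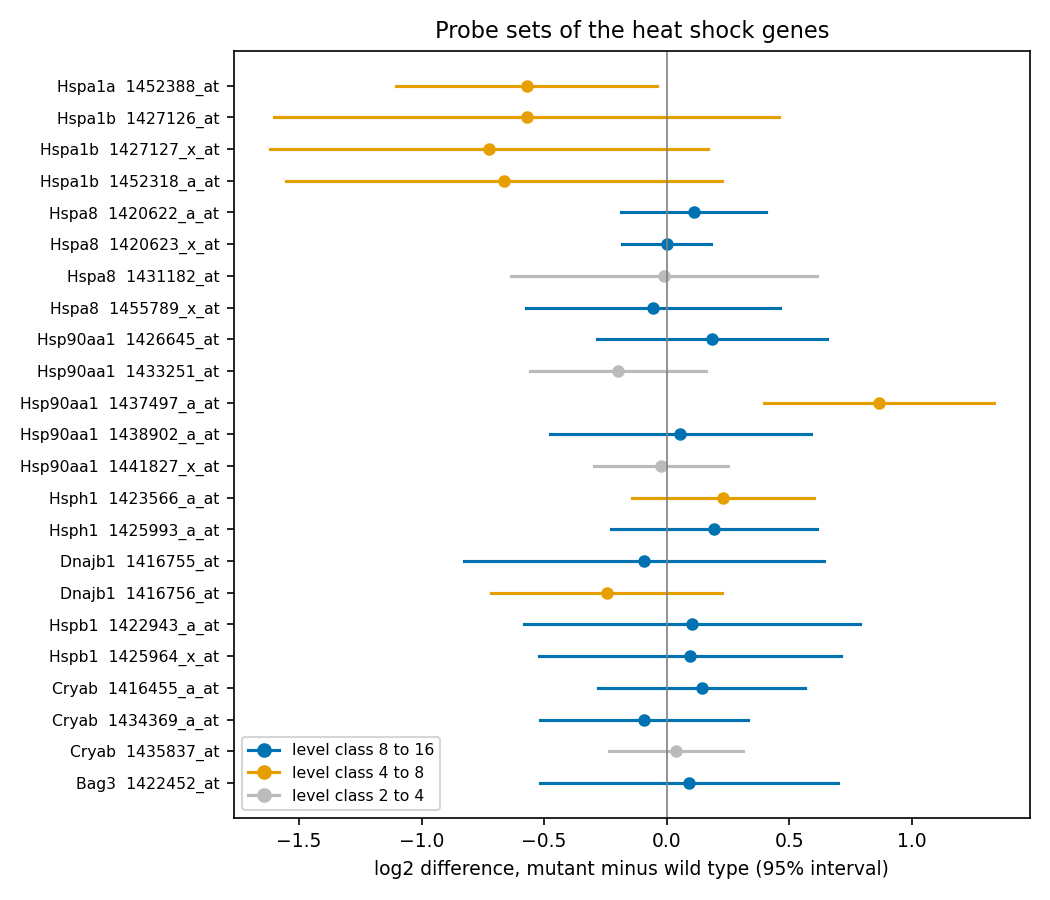
Log2 difference, mutant minus wild type, for each of the 23 probe sets (points) with limma's 95% interval (lines), coloured by the recovered level class. Intervals leave 0 for the Hspa1a probe set (-0.57) and the Hsp90aa1 probe set of the middle class (0.87), and cross it for the other 21.

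Hsph1, the HSP110 that exchanges nucleotide on HSP70, gave 0.00, 0.16 and 0.00 on the mutant arrays, and the wild type gave 0.18, -0.59, 0.00 and -0.15. The wild-type range enclosed the mutant values, with wild-type replicate 2 lowest. The difference was 0.19 ± 0.18 (SE), with a 95% interval from -0.22 to 0.61, and the second probe set of the gene, in a lower class, gave 0.23. Without wild-type replicate 2 the difference was 0.04.

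Dnajb1, the HSP40 that hands clients to HSP70, gave 0.04, 0.00 and -0.07 on the mutant arrays, and the wild type gave -0.33, 0.37, 0.82 and -0.53. The mutant arrays lay in the middle of a wild-type range of 1.35, with wild-type replicate 3 highest and replicate 4 lowest. The difference was -0.09 ± 0.31 (SE), with a 95% interval from -0.82 to 0.64, and it was 0.15 without wild-type replicate 3. The other probe set, in the class between 4 and 8, had its highest wild-type value, 0.54, in replicate 2 and differed by -0.24.

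Hspb1, known as HSP27 in human and HSP25 in mouse, is a small heat shock protein that binds actin filaments. It gave 0.53, -0.39 and 0.00 on the mutant arrays, and the wild type gave 0.35, -0.27, 0.20 and -0.49. High and low arrays occurred in both groups, and its 2 probe sets moved together over the arrays (Pearson r = 0.97, n = 7 arrays, a description). The difference was 0.10 ± 0.27 (SE), with a 95% interval from -0.54 to 0.74, and it was -0.14 without mutant replicate 1, the array with the highest ribosomal RNA control.

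Cryab, the alpha-B crystallin that protects desmin filaments, gave 0.15, -0.05 and -0.03 on the mutant arrays, and the wild type gave 0.17, -0.22, 0.05 and -0.01. All values lay within 0.39 of each other, and the groups overlapped. The difference was 0.03 ± 0.11 (SE), with a 95% interval from -0.24 to 0.29. The average hides a disagreement between its probe sets of the highest class. One measured 0.39 in mutant replicate 1 and -0.31 in mutant replicate 2, while the other measured -0.09 and 0.20 in the same arrays, and their differences between groups were 0.14 and -0.09. In the average, wild-type replicate 1 was the highest array and wild-type replicate 2 the lowest. The second of these probe sets gave 0.33 and -0.31 there, and the first gave 0.00 and -0.13. Both arrays were low in slow fibre genes, whose part in the Cryab values was not tested.

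Bag3, the co-chaperone of HSP70 in the autophagy of Z-disc proteins, gave 0.34, -0.34 and 0.08 on the mutant arrays, and the wild type gave 0.00, 0.00, 0.39 and -0.65. Wild-type replicate 3 was highest and replicate 4 lowest, and the mutant arrays lay between them. The difference was 0.09 ± 0.26 (SE), with a 95% interval from -0.51 to 0.70. Leaving out wild-type replicate 3 gave 0.24, and leaving out replicate 4 gave -0.10.

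**Figure D3:**
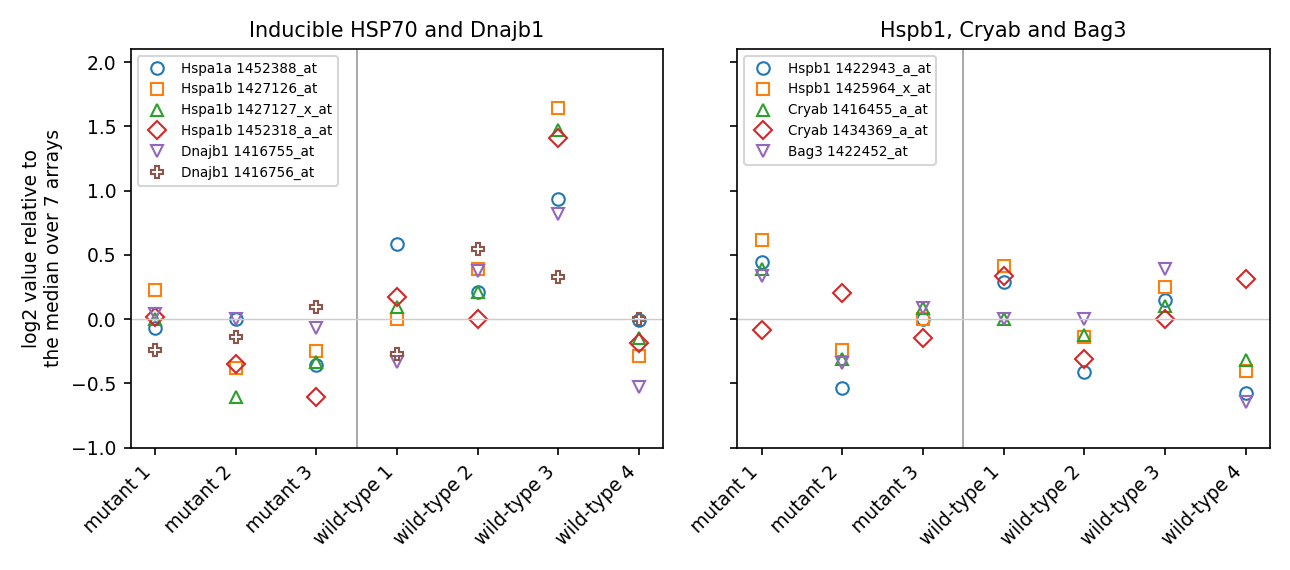
Log2 values of single probe sets in each of the 7 arrays, relative to the median over the arrays, with mutant arrays left and wild-type arrays right of the line. Left, the probe sets of Hspa1a, Hspa1b and Dnajb1, where wild-type replicate 3 is highest for 5 of 6. Right, the probe sets of Hspb1, Cryab and Bag3 in the highest level class, with high and low arrays in both groups and the Cryab probe sets at 0.39 and -0.09 in mutant replicate 1.

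The members did not share 1 pattern over the arrays. Of the 9 genes, 5 were highest in wild-type replicate 3 (Hspa1a, Hspa1b, Hsp90aa1, Dnajb1 and Bag3), 3 were lowest in wild-type replicate 4 (Dnajb1, Hspb1 and Bag3) and 3 in wild-type replicate 2 (Hsp90aa1, Hsph1 and Cryab). The mean over the 9 genes was 0.45 in wild-type replicate 3 and between -0.23 and 0.13 in the other 6 arrays. The spread within groups differed between members. Hspa1b had an SD of 0.62, above 96.7% of the 9122 genes of its level class, Dnajb1 an SD of 0.49, above 87.2% of 3599 genes of its class, and Hspa8 and Cryab SDs of 0.15 and 0.14, above 21.6% and 19.9% of that class.

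Likeness of pattern was measured as Pearson correlation over the 7 arrays among genes of the highest level class, as a description that shares arrays and their quality. Hspa1b itself lies in the class between 4 and 8, whose 9122 genes were not ranked. For Hspa1b the 6 most alike of the 3599 genes of the highest class were Sdcbp, Cdca4, Slc7a7, Ppl, Defb19 and P3h4, with r from 0.95 to 0.97, all highest in wild-type replicate 3. Defb19 measured 0.15 in that array, -0.03 in mutant replicate 2 and 0.00 in every other array. Its r therefore rests mainly on wild-type replicate 3, and its level class only on the values other than 0. Among the members, Dnajb1 (r = 0.78) was at place 162 of these and Hspa8 was at r = -0.50. Hspa1a, which is in the class of Hspa1b and so not among the ranked genes, had r = 0.85. For Cryab the 6 most alike of 3598 genes were Hspb7, Dnaja4, Rprd2, Csrp3, Tmem39a and Aopep, with r from 0.91 to 0.94. The first 2 are chaperone genes themselves, Hspb7 a small heat shock protein of heart and skeletal muscle and Dnaja4 an HSP40. Dnaja4 measured 0.82 in wild-type replicate 1 and -0.73 in wild-type replicate 2, the arrays in which the Cryab average was highest and lowest. That average joins 2 probe sets that ran against each other (r = -0.44). One had its extremes in these arrays (0.33 and -0.31), and the other gave 0.00 and -0.13. Likeness to either alone was not measured. Of the heat shock genes, Hsp90aa1 (r = 0.82), Hsph1 (r = 0.76) and Hspb1 (r = 0.76) were at places 18, 36 and 37 by likeness to the Cryab average. Dnajb1 was at r = -0.25 by that measure.

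The wider heat shock and chaperone network showed small differences, and 0 of its 50 measured genes passed the threshold, beside 0.0% of all genes. In limma 0 of the 50 had an unadjusted p under 0.05 either, beside 1.43% of all genes. Differences ran from -0.28 to 0.28 with a median of 0.02, and 31 were positive and 19 negative. Ahsa2, a relative of the HSP90 activator Ahsa1, was the only one of the 50 with no overlap between groups, beside 0.879% of all genes with mutant above and 1.19% with mutant below. It gave 0.17, 0.13 and 0.03 on the mutant arrays, and the wild type gave 0.00, -0.10, 0.00 and -0.06. Its difference was 0.15 ± 0.08 (SE; limma adjusted p = 1.00), and it was singled out after its values were seen.

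The other small heat shock proteins were measured for 6 of 6 genes, and all 6 differences were positive and none passed, with a median of 0.08. The smallest p-values were those of Cryaa, the lens alpha-A crystallin, at 0.13 ± 0.13 (SE), Hspb8, the partner of Bag3, at 0.23 ± 0.23, and Hspb2 at 0.09 ± 0.10. Hspb8 gave 0.11, 0.00 and 0.18 on the mutant arrays, and the wild type gave 0.43, -0.02, -0.34 and -0.60, so the highest and the lowest array were both wild type.

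Other genes of the HSP70 system, among them J-domain proteins and nucleotide exchange factors, gave 12 positive and 8 negative differences over 20 genes, with a median of 0.02. Dnajb5 differed by 0.28 ± 0.20, Bag4 by -0.20 ± 0.17 and Hspa1l, the neighbour of Hspa1a on chromosome 17, by 0.27 ± 0.24. HSP90 co-chaperones gave 5 positive and 4 negative differences over 9 measured genes of 12. Unc45b, the myosin chaperone of striated muscle, differed by 0.20 ± 0.21 and Ahsa1 by 0.10 ± 0.11.

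The 8 genes of the TRiC chaperonin, which folds actin and tubulin, gave 3 positive and 5 negative differences with a median of -0.10. Cct8 differed by 0.07 ± 0.07, Cct7 by 0.09 ± 0.11 and Cct5 by -0.17 ± 0.23. Of the other heat shock factors and regulators, Hsf2 differed by -0.10 ± 0.13, Hsf4 by -0.11 ± 0.10 and Hsbp1, which binds HSF1, by 0.15 ± 0.16. The Z-disc partners of Bag3 and Cryab were positive in 4 of 4 genes, with Synpo2 at 0.14 ± 0.13, filamin C (Flnc) at 0.19 ± 0.29 and desmin (Des) at 0.07 ± 0.18. Flnc measured 0.67, -0.50 and 0.24 in the mutant arrays, a spread of values like that of Hspb1 and Bag3 in the same arrays.

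**Figure D4:**
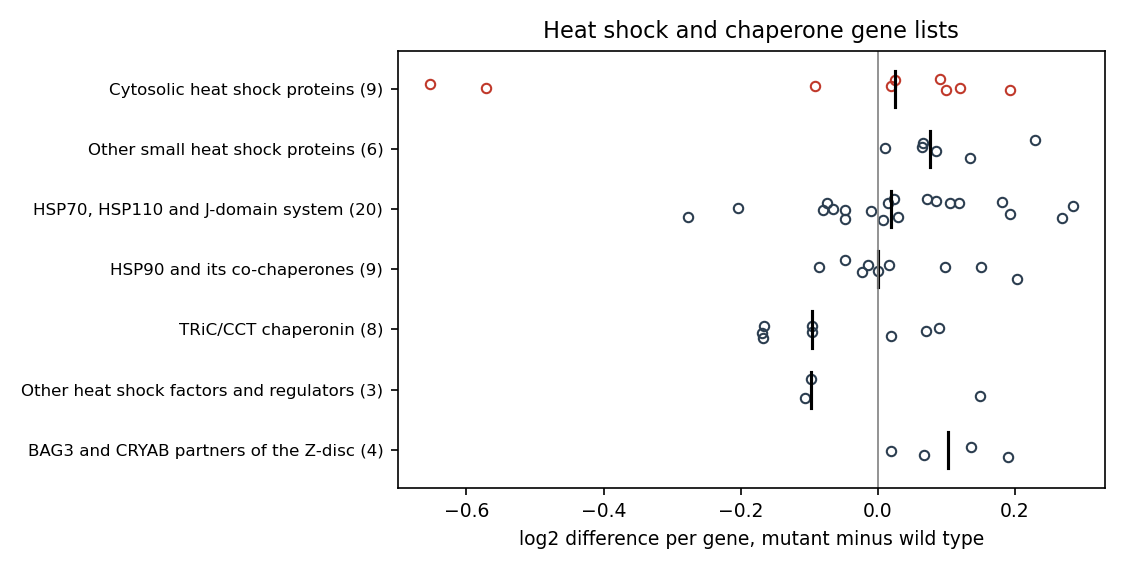
Log2 difference per gene, mutant minus wild type, for the 9 heat shock genes (red) and 6 related lists (dark blue), with the number of measured genes in brackets and the list median as a bar. Hspa1b and Hspa1a, at -0.65 and -0.57, lie outside the range from -0.28 to 0.28 of the 50 other genes. Without wild-type replicate 3 they are at -0.28 and -0.40, and their probe sets may each detect both transcripts.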

How the data were processed

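Muscle RNA of 3 mutant and 4 wild-type mice was hybridised to 1 Affymetrix array each. The deposited table holds log2 values of 45101 probe sets, centred on each probe set's median (exactly 0 in all 45101). The submitters' processing notes name GCOS 4.0; summary method, scaling and centring are not given in the sources used here. A level class follows from how finely the stored values are spaced, by the most likely class for each probe set, and 17 probe sets stayed unresolved. The values were taken as log2, and the spacing was not used to test the base. Names came from the platform annotation, with symbols updated by Entrez identifier (34754 of 34958). Gene values are means of the probe sets in the gene's highest class.

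Genes and probe sets were tested in limma 3.58.1 (R 4.3.3, lmFit and eBayes) across all 18193 genes and all 34945 probe sets. Tests were two-sided and Benjamini-Hochberg adjusted at a threshold of 0.05, with limma's SE and 95% interval. The fit was checked on simulated data with independent noise per gene. Genes of these arrays vary together, so that check cannot show how many true differences were missed here. Exact permutation tests used the 35 splits of the arrays. No set test was run. Arrays carry no read depth, so their number limits the precision.

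All 10 members are named with every probe set; from each related list the 3 genes with the smallest p are named, and for Hspa1b and Cryab the 6 genes most alike. Members and lists were chosen with earlier results of these data known. Alternatives were other probe set averaging, quantile normalization, a variance trend, no dim genes, age, the replicate number or the side of the first principal component as a block, and leaving out arrays.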

Additional observations from a re-analysis of the deposited data

Results flagged for a closer look

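A nearly flat Hspa8 probe set measured -0.0033 in wild-type replicate 1, apart from the other 3 wild-type arrays, which shared the value 0.00. This was the only heat shock gene or probe set value of the 4 wild-type arrays that stood apart by Dixon's ratio, out of 64 checks. The checks took the upper and the lower end for each of 9 genes and 23 probe sets. Chance alone gives about 1 in 20 such groups of 4 arrays, both ends together. Hspa1a, Hsph1, Dnajb1 and Bag3 have gene values from 1 probe set, so the same numbers were checked again. The gap of the Hspa8 probe set is far below the differences between other arrays. Wild-type replicate 3 of Hspa1b, at 1.51, did not reach this limit. The mutant group of 3 was too small for the check.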

How the results depend on the processing

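Counts past the threshold stayed at 0 for the 9 genes, the 23 probe sets and the 50 related genes in limma under every alternative tested. In the main fit 0.0% of all genes and 0.0% of all probe sets passed, and these shares were not counted under the alternatives. The counts therefore say nothing particular to heat shock genes. The differences of Hspa1a and Hspa1b stayed negative in all 17 alternatives, from -0.78 to -0.29 and from -1.01 to -0.28. Not all of these are separate checks. For Hspa1a, every mutant array lay at or below 0, and in wild type only replicate 4 did. The leave-outs and splits used here could therefore not turn its sign. Other averaging, the variance trend and leaving out dim genes left the differences of Hspa1a and Hspa1b as they were. The replicate number as a block gave the same differences as leaving out wild-type replicate 4. The difference of the Hsp90aa1 probe set of the middle class stayed positive in all 16 alternatives, from 0.26 to 1.25. Its groups do not overlap, so leaving out arrays or splitting them could not turn its sign. The variance trend and leaving out dim probe sets left its value as it was. Hsph1 stayed positive. Signs turned for the other 6 genes. Leaving out 1 array gave ranges of -0.090 to 0.12 for Hspa8, -0.046 to 0.24 for Hsp90aa1, -0.29 to 0.15 for Dnajb1, -0.14 to 0.32 for Hspb1, -0.047 to 0.081 for Cryab and -0.10 to 0.28 for Bag3. Quantile normalization turned Hspa8 to -0.014, and leaving out wild-type replicates 1 and 2 together turned Hsp90aa1 to -0.026. Arrays were split by the first principal component over all probe sets (51.3% of variance). Within mutant replicates 1 and 3 with wild-type replicates 2 and 3, Hspa8 was at -0.0065. Within mutant replicate 2 with wild-type replicates 1 and 4, Dnajb1 was at 0.43, Hspb1 at -0.32, Cryab at -0.13 and Bag3 at -0.019. The side as a block reversed no gene.

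With the replicate number as a block (replicate block), Hspb1 was at -0.046 and Bag3 at -0.10. Of the 9 genes, 0 passed, and the share over all genes was not counted in this setting. Only wild type has a replicate 4, so these differences equal those without wild-type replicate 4 and are no separate check. The labels do not say that the numbers pair the mice. Same-numbered arrays deviated from their group means with correlations of -0.47, -0.29 and 0.13, and differently numbered ones with -0.48 to 0.52. Deviations from the means of so few arrays are tied to each other, so these values cannot decide whether the numbers pair mice. The median over the 50 related genes was 0.02 and moved to 0.043 with age as a covariate, 0.040 with the side as a block, -0.0077 and 0.082 within the sides, and from 0.010 to 0.048 when 1 array was left out; the median over the 9 genes ran from -0.064 to 0.15. The causes were not tested.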
